A study of Homo sapiens with 12 samples.

Results

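Integrins are the receptors by which cells hold on to the extracellular matrix, and 10 of their subunit genes are described here in A375 cells with and without a knockdown of ALKBH5, the demethylase that removes N6-methyladenosine (m6A) from RNA. The 10 genes are ITGB5, ITGAV, ITGB1, ITGB3, ITGB8, ITGA2, ITGA3, ITGA4, ITGA5 and ITGA6, out of 29696 genes in the expression table. They were taken by gene symbol, starting from ITGB5 and its partner ITGAV, together with every peak of the same genes. The set was selected on measured values, because the large ITGB5 difference between the groups in these same libraries was known when the list was drawn up. Their differences between the groups are therefore given as a description, without a test.

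A375 is an established human melanoma line. The cells received a lentivirus carrying either a hairpin against ALKBH5 (shALKBH5) or a control hairpin (shCtrl, whose genotype the labels give as wild type), and were harvested 48 h after infection. The study's general infection protocol added polybrene with the virus and later puromycin selection, and the labels list no further treatment for either group. The labels do not say which hairpin, or how many, the shALKBH5 libraries carried. Each group had 3 input libraries, which measure RNA abundance, and 3 libraries of RNA pulled down with an antibody against m6A (IP). Nothing in the labels says that the libraries of a group came from separate cultures, so every p-value measures the spread between these libraries only. In bulk RNA, fewer cells of a kind and less RNA per cell cannot be told apart.

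An integrin at the cell surface is a pair of 1 alpha and 1 beta subunit. ITGAV (alpha-v) pairs with ITGB1, ITGB3, ITGB5, ITGB6 or ITGB8 and binds ligands that carry an Arg-Gly-Asp motif, such as vitronectin, fibronectin and osteopontin, while ITGB1 pairs with many alpha subunits that bind laminins, collagens or fibronectin. In melanoma the alpha-v beta-3 pair is known as a mark of the switch to vertical, invasive growth.

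The knockdown was visible in its target. ALKBH5 stood at 3.39, 3.92 and 3.12 FPKM (fragments per kilobase of transcript, scaled to the mapped fragments of the library, so a level per length) in the shALKBH5 libraries and at 19.3, 17.8 and 17.6 FPKM in the shCtrl libraries. Its difference on the log2(FPKM + 0.1) scale was -2.36 ± 0.0887 (SE, n = 3 per group), with an adjusted p of 1.276e-06 (limma, Benjamini-Hochberg over all 12985 genes tested). Libraries of the same group correlated at 0.981 to 0.984 and libraries of different groups at 0.929 to 0.934 over these genes, and summed FPKM ran from 212759.6 to 223230.8 per library. Of 9 melanocyte and melanoma markers, 8 were listed and 4 reached 1 FPKM in a library (SOX10, S100B, S100A1 and MITF), with their sum at 267 to 271 FPKM in shALKBH5 and 216 to 226 in shCtrl cells. Within that sum SOX10 averaged 181 and 184 FPKM and S100B 82.1 and 32.9 FPKM, while the pigment genes PMEL, TYRP1 and DCT stayed under 1 FPKM and TYR was at 0 in every shCtrl library. Among markers of other cell types, 0 of 3 endothelial, 2 of 4 fibroblast, 2 of 4 keratinocyte and 1 of 4 leukocyte markers reached 1 FPKM. The fibroblast markers that did so were PDGFRB, with means of 2.73 in shALKBH5 and 7.25 FPKM in shCtrl cells, and LUM, with 2.61 and 1.16. The fibroblast list sum was 5.32 to 6.35 against 8.74 to 9.56. The keratinocyte markers were KRT10, with means of 10.8 and 8.17 FPKM, and KRT14, with 0.369 and 0.961. Their list sum was 10.7 to 11.5 against 8.90 to 9.53. The leukocyte marker was CD68, which many cell types express, with means of 40.4 and 16.2 FPKM. The leukocyte list sum was 38.1 to 42.2 against 14.9 to 17.3. The part of all these markers in the integrin differences was not tested.

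ITGB5, the beta-5 subunit that forms the vitronectin receptor alpha-v beta-5, lies on the minus strand at chr3:124761948-124901418. RefSeq (GRCh38.p14) lists 3 transcription starts for it. The sequence upstream of the most distal start is shown because an m6A peak of the shALKBH5 list reached exactly to that start, and the same stretch of ITGAV is shown beside it as the partner whose level overlapped between the groups. Both runs are 250 bases, 5' to 3' on the strand of the gene, ending just before the start, and capitals mark the GC box GGGCGG read on either strand.
ITGB5, chr3:124901419-124901668, minus strand: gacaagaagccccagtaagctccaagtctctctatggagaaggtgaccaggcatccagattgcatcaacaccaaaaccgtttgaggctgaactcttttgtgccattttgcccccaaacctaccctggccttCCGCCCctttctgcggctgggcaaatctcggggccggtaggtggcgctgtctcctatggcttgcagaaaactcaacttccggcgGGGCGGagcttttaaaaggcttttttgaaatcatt
ITGAV, chr2:186589806-186590055, plus strand: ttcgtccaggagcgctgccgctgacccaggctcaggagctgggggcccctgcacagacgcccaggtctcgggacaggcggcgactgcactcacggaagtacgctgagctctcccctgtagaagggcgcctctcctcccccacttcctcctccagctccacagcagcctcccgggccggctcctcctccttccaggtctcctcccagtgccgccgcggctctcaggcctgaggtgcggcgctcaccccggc
The GC box was found 2 times in the ITGB5 window and 0 times in the ITGAV window (250 bases before to 50 after the start), and 45.0% of all 35116 RefSeq windows held it. Among the other subunits it was found 4 times in ITGA2, 2 times in ITGB8, 1 time in ITGA5 and 0 times in ITGA4. Subunits with several starts varied, with 3 and 0 in ITGB1 and 1 and 3 in ITGA6. The other ITGB5 starts had 2 and 3, and the other ITGAV start 0. RefSeq windows matched 8 of the 10 subunits by symbol, all but ITGB3 and ITGA3. The AP-1 site TGACTCA, present in 4.95% of all windows, was found once, in ITGA5, and the E-box CATGTG that MITF binds, present in 11.1%, was found in none of them, both strands searched. These are matches of letters in a window and not measured sites.

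ITGB5 had the largest difference of the 10 subunits. Its level was 5.84, 5.86 and 6.41 FPKM in the shALKBH5 libraries and 74.6, 71.8 and 72.0 FPKM in the shCtrl libraries. Every shALKBH5 library lay far below every shCtrl library, and the spread within each group was small beside the gap. The means were 6.04 ± 0.324 and 72.8 ± 1.52 FPKM (SD, n = 3), a level 12.1-fold lower in shALKBH5 cells, and the log2 difference was -3.57 (SE 0.0499). Of all tested genes, 3 had a more negative difference, and 96.3% had a level in shCtrl cells at or below that of ITGB5. The gene models that overlap ITGB5 on its own strand (AC022336, 7SK and ENO1P3) had group means of at most 0.123 FPKM, and those that overlap ITGB1, ITGB3, ITGA2, ITGA4 and ITGA6 on the opposite strand at most 0.132 FPKM.

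ITGAV, the alpha partner of ITGB5, did not separate the groups. It was measured at 6.51, 5.37 and 6.24 FPKM in shALKBH5 and at 4.71, 6.09 and 4.40 FPKM in shCtrl libraries. The ranges overlapped, and the log2 difference was 0.26 (SE 0.13), with means of 6.04 ± 0.593 and 5.07 ± 0.901 FPKM (SD, n = 3). ITGB5 and ITGAV thus stood at the same mean level in shALKBH5 cells, with an ITGB5 to ITGAV ratio of 0.898, 1.09 and 1.03, whereas in shCtrl cells the ratio was 15.8, 11.8 and 16.4.

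ITGB3 and ITGB8, which also pair with ITGAV, were lower as well. ITGB3 (beta-3, chr17:47253827-47313743, plus strand) read 32.9, 31.9 and 36.5 FPKM in shALKBH5 and 64.2, 70.0 and 68.1 FPKM in shCtrl libraries. The groups were well apart, with means of 33.8 ± 2.44 and 67.4 ± 2.98 FPKM and a log2 difference of -1.0 (SE 0.0607). ITGB8 (beta-8), whose pair with alpha-v is known for the activation of latent TGF-beta, was a rare transcript here. Its level was 0.547, 0.337 and 0.458 FPKM in shALKBH5 against 2.99, 3.45 and 2.65 FPKM in shCtrl libraries. That is a mean 6.77-fold lower and a log2 difference of -2.53 (SE 0.173), a value that rests on low levels and was -1.47 with a pseudocount of 1 FPKM. An antisense model at the 5' end of ITGB8, AC004130, stood at 0.463 FPKM in shALKBH5 and 0.538 in shCtrl cells, close to ITGB8 itself in the knockdown, and whether the counting used strand is not stated. ITGB6 was at or near 0 in all libraries, at 0.00501 FPKM on average in shALKBH5 and 0.00183 in shCtrl cells.

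ITGB1 (beta-1), the common partner of most matrix-binding alpha subunits, differed little. Its level was 23.3, 19.3 and 21.4 FPKM in shALKBH5 and 23.3, 30.2 and 24.2 FPKM in shCtrl libraries. The highest shALKBH5 library and the lowest shCtrl library were equal to 3 digits, so the groups were apart by a margin smaller than the spread within either, and the log2 difference was -0.27 (SE 0.109).

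Of the alpha subunits in the set that pair with ITGB1, ITGA3 was the most abundant in shCtrl cells. ITGA3, a receptor subunit for laminin-332 and laminin-511, was measured at 29.1, 27.9 and 29.7 FPKM in shALKBH5 and at 69.1, 64.7 and 64.1 FPKM in shCtrl libraries. The spread within each group was narrow beside the gap, which gave means of 28.9 ± 0.931 and 66.0 ± 2.73 FPKM and a log2 difference of -1.19 (SE 0.0455). ITGA6, the laminin-binding subunit that also pairs with ITGB4, read 19.0, 16.6 and 16.9 FPKM against 26.3, 34.9 and 28.5 FPKM. The shCtrl libraries were again all higher, with a wider spread, and the log2 difference was -0.76 (SE 0.107). ITGA4, which binds VCAM1 and fibronectin, was a low transcript, at 2.86, 2.39 and 2.79 FPKM in shALKBH5 and 3.52, 3.83 and 3.21 FPKM in shCtrl libraries, with a log2 difference of -0.38 (SE 0.0985). Its groups did not overlap but lay within 1 FPKM of each other at their nearest libraries.

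The fibronectin receptor subunit ITGA5 (alpha-5) was abundant in both groups, and its values intermingled. It read 37.3, 38.3 and 40.3 FPKM in shALKBH5 and 43.1, 37.7 and 40.1 FPKM in shCtrl libraries, with overlapping ranges and a log2 difference of -0.06 (SE 0.0579). The collagen receptor subunit ITGA2 (alpha-2) was the lowest of the 10 in shCtrl cells, at 1.96, 2.56 and 1.57 FPKM, and was at 2.71, 2.05 and 2.62 FPKM in shALKBH5 libraries. Its ranges overlapped too, and the log2 difference was 0.28 (SE 0.183).

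**Figure D1:**
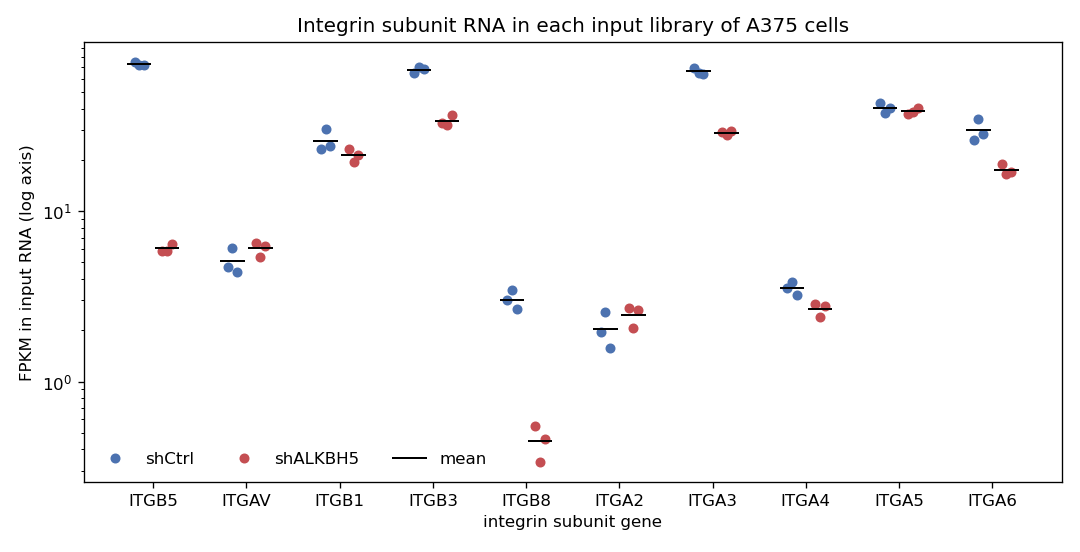
Level of each integrin subunit in the 6 input libraries of A375 cells, in FPKM on a log axis, with 1 point per library (shCtrl in blue, shALKBH5 in red) and a black line at the group mean. ITGB5 moved from 72.8 FPKM, the highest of the 10, to 6.04 FPKM, while the points of ITGA5, ITGAV and ITGA2 intermingled.

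All 10 subunits passed the filter on low values (a mean that reached 0.5 FPKM in the 6 libraries together), ITGB8 only through its shCtrl level. Groups did not overlap for 7 of them, all lower in shALKBH5 cells, beside 29.0% of all tested genes that did so in that direction, and for 0 in the higher direction, beside 38.0%. In the fit over all genes, 26.2% of the tested genes were past an adjusted p of 0.05 (limma) and lower, 34.7% past it and higher, and 61.0% past it in either direction. After median ratio rescaling of the libraries, 3777 tested genes were past it and higher and 3903 past it and lower, in place of 4509 and 3408. Since the set was selected on this contrast, its members were given no such call and nothing is read from the counts of groups that did not overlap. The median log2 difference of the 10 was -0.57, and that of all tested genes was 0.09.

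**Figure D2:**
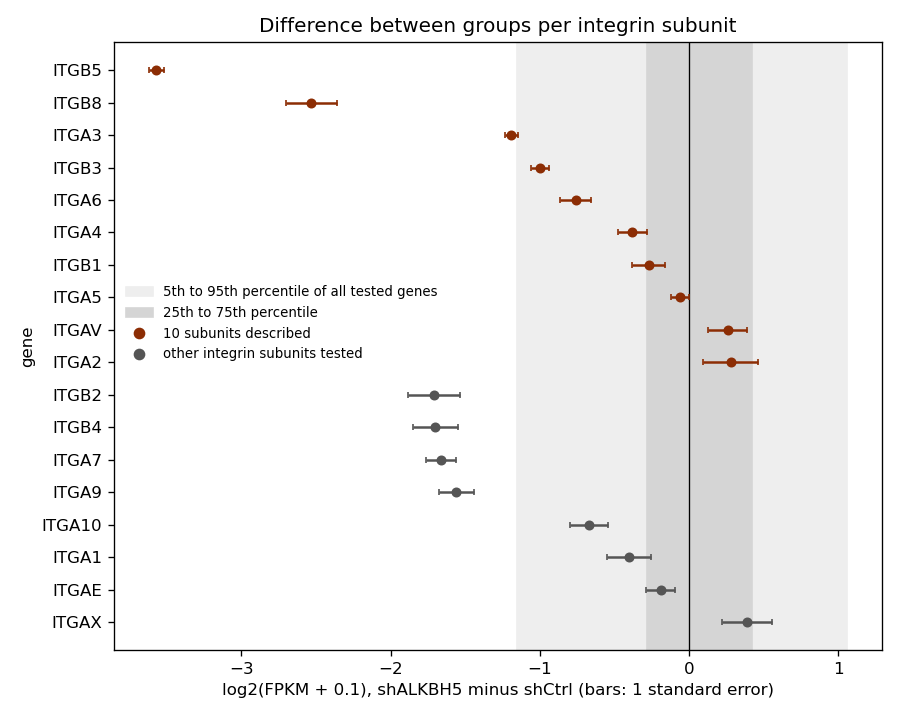
Difference in log2(FPKM + 0.1), shALKBH5 minus shCtrl, for the 10 subunits (brown) and the 8 other integrin subunits that passed the filter (dark grey), with bars of 1 standard error and grey bands for the middle of all tested genes. ITGB5 at -3.57 and ITGB8 at -2.53 lay outside the band from the 5th to the 95th percentile, which ran from -1.15 to 1.06, as did ITGA3 at -1.19 and, of the other subunits, ITGB2 at -1.71, ITGB4 at -1.70, ITGA7 at -1.66 and ITGA9 at -1.56, of which ITGB2 and ITGB4 were at -0.74 and -0.84 with a pseudocount of 1 FPKM.

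The order of the levels changed between the groups. In shCtrl cells ITGB5 came first with 72.8 FPKM, followed by ITGB3 (67.4) and ITGA3 (66.0), whose ranges overlapped, then ITGA5 (40.3), ITGA6 (29.9) and ITGB1 (25.9), the last pair overlapping. A gap followed, and then came ITGAV (5.07), ITGA4 (3.52) and ITGB8 (3.03), of which the latter pair overlapped, and ITGA2 (2.03). In shALKBH5 cells ITGA5 came first (38.6 FPKM), followed by ITGB3 (33.8), ITGA3 (28.9), ITGB1 (21.4) and ITGA6 (17.5) with no overlap between neighbours. ITGB5 was 7th there and overlapped with ITGAV, both at 6.04 FPKM, ahead of ITGA4 (2.68) and ITGA2 (2.46), which overlapped with each other, and ITGB8 (0.448).

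Shares within a library do not depend on how the library was scaled. Of the summed FPKM of the beta subunits that pair with ITGAV, ITGB5 made up 45.2%, 40.9% and 43.1% in the shCtrl libraries and 9.34%, 10.2% and 9.89% in the shALKBH5 libraries (means 43.1% ± 2.12 and 9.81% ± 0.438, SD, n = 3). ITGB5 and ITGB3 had near equal shares in shCtrl cells, with an ITGB5 to ITGB3 ratio of 1.08, and in shALKBH5 cells the ratio was 0.179. ITGB3 made up 39.9% ± 0.954 in shCtrl and 54.8% ± 2.00 in shALKBH5 cells, so its share was higher while its level was lower. ITGB1 held 15.3% ± 1.68 and 34.6% ± 2.27, and ITGB8 1.79% ± 0.189 and 0.723% ± 0.145. The sum itself was 169 ± 5.54 FPKM in shCtrl and 61.6 ± 3.77 FPKM in shALKBH5 cells. Because most ITGB1 protein pairs with other alpha subunits, the shares were also taken without it, and ITGB5 then held 50.8% ± 1.62 and 15.0% ± 0.325.

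**Figure D3:**
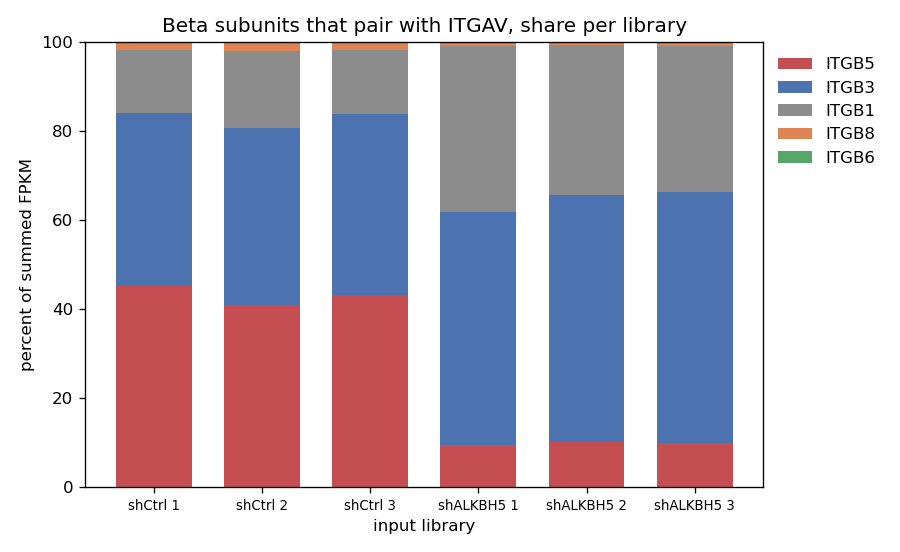
Share of each beta subunit that pairs with ITGAV, in percent of their summed FPKM, in each input library, with 1 stacked bar per library. The ITGB5 part (red) took 40.9% to 45.2% of the shCtrl bars and 9.34% to 10.2% of the shALKBH5 bars, and ITGB3 (blue) was the largest part of every shALKBH5 bar.

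The 12 alpha subunits that pair with ITGB1 were summed in the same way. Their sum was 159 ± 4.70 FPKM in shCtrl and 102 ± 3.23 FPKM in shALKBH5 cells. ITGA3 made up 41.4% ± 1.64 in shCtrl and 28.4% ± 0.210 in shALKBH5 cells, and ITGA5 25.3% ± 1.94 and 38.0% ± 1.63. The leading alpha transcript was therefore ITGA3 in shCtrl cells and ITGA5 in shALKBH5 cells. ITGA6 kept overlapping shares (18.8% ± 2.55 and 17.2% ± 1.11), and ITGAV held 3.17% ± 0.489 and 5.93% ± 0.415. Shares of RNA do not give shares of assembled receptors, which these data do not measure.

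The other 16 integrin subunits were looked at next, and 8 of them passed the filter. Of these, 6 fell and 0 rose at an adjusted p under 0.05 (limma), beside 26.2% and 34.7% of all tested genes, with a median log2 difference of -1.12 beside 0.09 over all tested genes. ITGB2 (adjusted p = 1.164e-04, limma), the leukocyte beta-2 subunit, fell by 1.71 on the log2 scale, from 1.15 to 0.282 FPKM. ITGB4, the hemidesmosome partner of ITGA6, fell by 1.70 (adjusted p = 6.081e-05, limma), from 1.50 to 0.393 FPKM. With a pseudocount of 1 FPKM these low genes were at -0.74 and -0.84. Both were below 0.5 FPKM in shALKBH5 cells and passed the filter only through shCtrl cells, where they were high, and with the filter at a mean of 1 FPKM they dropped out and 4 subunits fell. The laminin receptor subunit ITGA7 fell by 1.66 (adjusted p = 9.875e-06, limma) and ITGA9, which binds tenascin-C and osteopontin, by 1.56 (adjusted p = 2.860e-05, limma). ITGA10 fell by 0.67 (adjusted p = 0.003139, limma, and by 0.37 with a pseudocount of 1 FPKM) and ITGA1 by 0.40 (adjusted p = 0.04463, limma), both collagen receptor subunits. The ITGA1 call was lost with any single library left out except shCtrl replicate 3, at adjusted p values of 0.0655, 0.130 and 0.0794 without shALKBH5 replicates 1, 2 and 3 and 0.0899 and 0.0967 without shCtrl replicates 1 and 2. ITGAE at -0.19 and ITGAX at 0.39 were not past the threshold (adjusted p = 0.1373 and 0.07874, limma). All 8 had means of at most 4.10 FPKM, far below ITGB5, ITGB3 or ITGA3 in shCtrl cells.

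The proteins that switch integrins on and off at their cytoplasmic tails had calls near the background share. Of 16 tested genes in this list of 21, 3 rose, 6 fell and 7 were not past the threshold, so 56.2% were past it beside 61.0% of all tested genes, with a median log2 difference of -0.02. Without shCtrl replicate 2 the number that rose was 5. Talin (TLN1), which opens the integrin by binding the beta tail, was measured at 60.8 and 62.3 FPKM in shALKBH5 and shCtrl cells (adjusted p = 0.4925, limma), and its co-activator kindlin-2 (FERMT2) at a log2 difference of -0.14 (adjusted p = 0.2531, limma). Kindlin-1 (FERMT1) rose by 0.45 (adjusted p = 0.002324, limma), with means of 4.22 FPKM in shALKBH5 and 3.07 in shCtrl cells. KANK2, a talin-binding protein at the rim of focal adhesions, fell by 1.42 (adjusted p = 6.366e-07, limma), and DOK1, which competes with talin for the beta tail, by 1.32 (adjusted p = 5.544e-06, limma).

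Focal adhesion adaptors and kinases, which link the tails to actin and to signalling, numbered 40 tested of 44, of which 11 rose, 19 fell and 10 were not past the threshold (median -0.15), so 75% were past it beside 61.0% of all tested genes. Without shALKBH5 replicate 1 the number that rose was 7. Hic-5 (TGFB1I1) fell by 1.01 (adjusted p = 3.456e-05, limma), PAK2 by 0.85 (adjusted p = 1.382e-04, limma) and parvin gamma (PARVG) by 0.81 (adjusted p = 9.126e-04, limma), a value that was -0.40 with a pseudocount of 1 FPKM. Paxillin (PXN) and vinculin (VCL) fell by 0.37 and 0.34 (adjusted p = 6.016e-04 and 0.002174, limma). Focal adhesion kinase (PTK2) rose by 0.38 (adjusted p = 0.01487, limma), a call that was lost without shALKBH5 replicate 1 (adjusted p = 0.0531), and integrin-linked kinase (ILK) at -0.05 was not past the threshold (adjusted p = 0.6612, limma).

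The genes of integrin uptake and recycling went both ways. Of 27 tested of 30, 12 rose, 9 fell and 6 were not past the threshold, so 77.8% were past it beside 61.0% of all tested genes, with a median of 0.00. Among the tested genes of the list, the largest differences were falls in AP2M1, the cargo-binding subunit of the AP-2 clathrin adaptor, from 102 to 43.7 FPKM (log2 difference -1.22, adjusted p = 1.132e-06, limma), in the scaffold ITSN1 by 1.04 (adjusted p = 0.001727, limma; 0.45 with a pseudocount of 1 FPKM), which at means of 0.873 and 0.367 FPKM passed the filter only through shCtrl cells, and in RAB4A, a GTPase of fast recycling, by 0.67 (adjusted p = 2.672e-04, limma). DAB2, an adaptor for integrin beta tails, fell by 0.20 (adjusted p = 0.02156, limma), a call that was lost without shALKBH5 replicate 1, shALKBH5 replicate 3 or shCtrl replicate 3 (adjusted p = 0.0580, 0.0810 and 0.0697). NUMB stood at 0.00 (adjusted p = 0.9608, limma).

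Ligands came in a pair of lists, to be read beside the 26.2% of all tested genes that fell and the 34.7% that rose. Of 14 tested ligands with an Arg-Gly-Asp or related site, in a list of 26, 9 fell, 1 rose and 4 were not past the threshold (median -0.49). Osteopontin (SPP1), a ligand of alpha-v beta-3 and alpha-v beta-5, fell from 45.3 to 15.1 FPKM (log2 difference -1.58, adjusted p = 2.838e-05, limma), CCN2 from 87.4 to 32.8 FPKM (-1.41, adjusted p = 5.934e-07, limma) and L1CAM by 1.37 (adjusted p = 2.696e-06, limma). Fibronectin (FN1) fell by 0.60 (adjusted p = 3.944e-05, limma). MFGE8, the bridging ligand of alpha-v beta-5 in the uptake of dying cells, was the gene that rose, by 0.30 (adjusted p = 0.004224, limma), and vitronectin (VTN) was at 0.496 and 0.271 FPKM in shALKBH5 and shCtrl cells, below the filter.

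Of 19 tested laminin and collagen chains in a list of 25, 11 fell, 3 rose and 5 were not past the threshold (median -0.48). With the filter at a mean of 1 FPKM, 8 fell and 3 rose. LAMB3, the beta chain of laminin-332, a ligand of alpha-3 beta-1 and alpha-6 beta-4, rose from 5.01 to 14.5 FPKM (1.51, adjusted p = 4.649e-06, limma). COL6A2 fell by 1.06 (adjusted p = 1.058e-05, limma).

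Of the membrane partners of integrins, all 21 were tested, and 15 fell, 2 rose and 4 were not past the threshold (median -0.30), beside 26.2% and 34.7% of all tested genes that fell and rose. Without shALKBH5 replicate 1, the number that rose was 1. With the filter at a mean of 1 FPKM, the number that fell was 14. Caveolin-1 (CAV1), which is involved in integrin uptake, fell from 51.1 to 11.2 FPKM (-2.19, adjusted p = 2.182e-06, limma), the tetraspanin CD9 from 13.7 to 3.77 FPKM (-1.84, adjusted p = 8.445e-07, limma) and syndecan-1 (SDC1), a co-receptor of alpha-v integrins, by 1.19 (adjusted p = 6.797e-06, limma). CD151, the tetraspanin bound to alpha-3 beta-1, fell by 0.37 (adjusted p = 6.055e-04, limma).

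**Figure D4:**
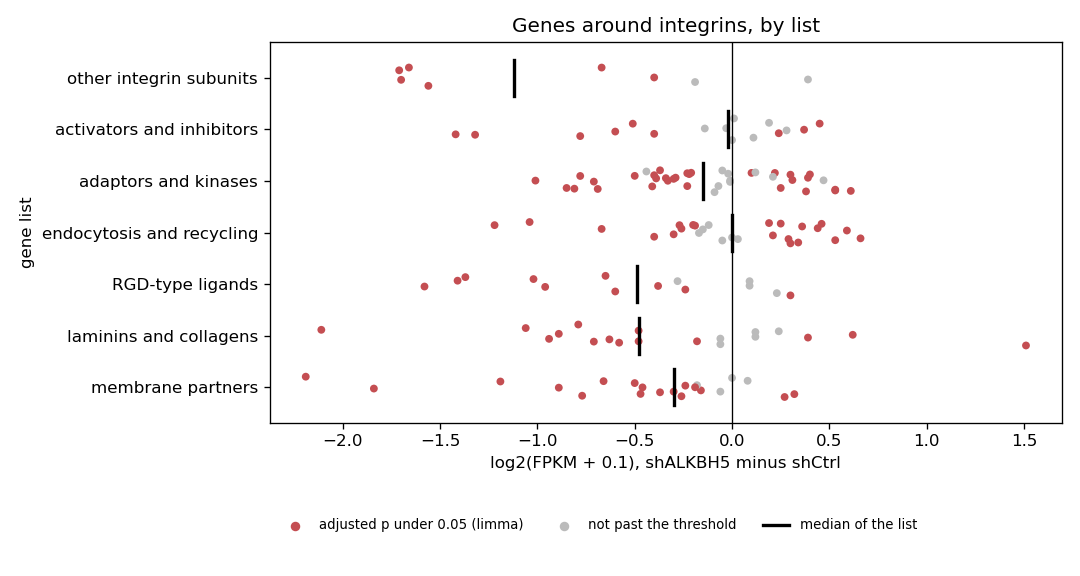
Difference in log2(FPKM + 0.1), shALKBH5 minus shCtrl, for every tested gene of the 7 lists around integrins, 1 point per gene, red where the adjusted p (limma) was under 0.05 and grey otherwise, with a black bar at the median of each list (points are spread vertically for view only). The medians ran from -1.12 for the other integrin subunits to 0.00 for uptake and recycling, and LAMB3 at 1.51 was the point farthest to the right.

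The genes whose 6 values were most like those of ITGB5 were sought by the root mean square difference of centred log2 values over the 6 input libraries. Among the nearest were CPA4, TRIL, SCARA3 and SUCLG2, at distances of 0.18, 0.24, 0.24 and 0.26 log2 units. Their log2 differences were -3.72, -3.12, -3.33 and -3.20, beside -3.57 for ITGB5. TRIL and SCARA3, with shALKBH5 means of 0.107 and 0.382 FPKM, passed the filter only through shCtrl cells. Their log2 differences, and so their distances, depend in part on the pseudocount of 0.1 FPKM. All 4 genes stood far below ITGB5 in level, with shCtrl means of 9.13, 1.70, 4.69 and 12.9 FPKM. None of them is an integrin subunit, and the likeness describes 6 libraries in 2 groups.

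The m6A peak lists give positions at which IP fragments were enriched over input, 1 list per group, without replicates, so no difference between the lists could be tested. The shALKBH5 list held 24 peaks in all 10 subunits, of 46039 peaks, and the shCtrl list held 23 peaks in 9 subunits, of 44304 peaks, with none in ITGB1. Of the 24, 19 overlapped a shCtrl peak by at least 1 base, and of the 23, 17 overlapped a shALKBH5 peak, beside 78.1% and 81.3% of all peaks. With a reciprocal overlap of 50%, 13 and 13 were shared, beside 51.6% and 53.7% of all peaks.

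The share of the subunits' peaks at the 3' end was close to that of all peaks. In each list 11 peaks were annotated to the 3' untranslated region (UTR), beside 45.5% of all shALKBH5 and 46.2% of all shCtrl peaks, and 5 to the 5' UTR, beside 16.6% and 17.0%. Other exons held 4 in each list, beside 13.3% and 13.4%, and introns held 4 in shALKBH5 and 3 in shCtrl cells, beside 4.83% and 4.73%. A 3' UTR peak was present in 9 of the 10 subunits in each list, all but ITGB1, beside 68.7% and 67.8% of all tested genes. The median fold enrichment of their peaks was 4.72 in shALKBH5 and 3.75 in shCtrl cells, beside 5.31 and 5.25 over all peaks.

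ITGB5 had 3 peaks in the shALKBH5 list and 5 in the shCtrl list. A 3' UTR peak at chr3:124763143-124763711 had a fold enrichment of 4.29 in shALKBH5 cells, and the broader shCtrl peak over it, at chr3:124763083-124764413, one of 3.06. An exonic peak was found at chr3:124796521-124796640 in shALKBH5 and at chr3:124796461-124796700 in shCtrl cells, with low enrichments of 1.44 and 1.54. At the 5' end the shCtrl peak covered chr3:124887157-124887750 (4.71), and the shALKBH5 peak ran from chr3:124887217 to the distal start at chr3:124901418 (7.35), a span of 14202 bases that includes an intron. The 3 pairs had ratios of 1.40, 0.935 and 1.56, shALKBH5 over shCtrl. These lay within the middle 80% of all 25500 peak pairs with a reciprocal overlap of 50%, whose ratio had a median of 0.970 and ran from 0.574 to 1.70 between the 10th and 90th percentiles, although the 3' UTR and 5' UTR pairs of ITGB5 did not themselves reach that overlap. The shCtrl list alone held a 3' UTR peak at chr3:124761948-124762127 (2.68) and an intronic peak at chr3:124769465-124769525 (3.19), which did not meet an FDR of 0.01. The ITGB5 input level was 12.1-fold lower in shALKBH5 cells. The number of fragments behind its peaks is not known, and the part of the lower level in the number of peaks was not tested.

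In 5 subunits the 3' UTR peak had the same borders in both lists, with enrichment ratios of 0.843 to 1.02. For ITGA5 the peak at chr12:54395261-54397410 had a fold enrichment of 8.72 in shALKBH5 and 8.58 in shCtrl cells. For ITGA3 the peak at chr17:50089162-50090481 had 7.28 and 7.56, and for ITGA6 the peak at chr2:172501784-172504722 had 6.46 and 7.66. The input level of ITGA3 was 2.28-fold lower in shALKBH5 cells and that of ITGA5 overlapped between the groups, and their enrichment ratios were 0.963 and 1.02. ITGB3 was enriched 3.41 and 3.55 times at chr17:47310185-47310454. ITGAV had a single weak peak at its 3' end, chr2:186680721-186680901, with enrichments of 1.88 and 2.21.

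Peaks of the rarer subunits had enrichments among the highest of the set. ITGB8 had a 3' UTR peak with a fold enrichment of 9.55 at chr7:20409638-20410393 in shALKBH5 and of 9.11 at chr7:20409668-20410513 in shCtrl cells. Its 5' UTR peak was a single region in the shCtrl list, chr7:20330702-20331451 (7.66), and 2 shorter regions in the shALKBH5 list, at chr7:20330702-20330912 (8.57) and chr7:20331151-20331391 (2.50). The first of these did not meet an FDR of 0.01. ITGA2 had 1 peak per list, enriched 10.6-fold and 11.1-fold in the 3' UTR. ITGA4 had a 3' UTR peak with 7.51 in shALKBH5 and 5.55 in shCtrl cells, and the strongest enrichment among the peaks of the 10 subunits, 17.9, was in an intron of ITGA5 at chr12:54400147-54400536 in the shCtrl list alone. ITGB1, at 21.4 to 25.9 FPKM on average, had peaks only in the shALKBH5 list, a 5' UTR peak at chr10:32933390-32933539 (4.90) and an intronic peak at chr10:32958640-32958789 (5.51), of which the intronic peak did not meet an FDR of 0.01.

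The m6A writer complex favours the consensus GGACT among its sites. Among the RefSeq windows of the subunits, 1 of ITGB8 and 1 of ITGB1 held GGACT on the transcript strand, beside 25.3% of all windows. No peak overlapped the ITGB1 window. In ITGB8 the motif lay inside the shCtrl 5' UTR peak and just past the end of the first shALKBH5 region. The 30 bases around the ITGB8 motif are printed with the motif in capitals, since this is the place in the 5' UTR where the shCtrl peak was continuous and the shALKBH5 peaks were not.
ITGB8, chr7:20330913-20330942, plus strand: aactcgggctctGGACTgcgggacgcctga

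In the table of differential peaks as used here, 0 of 6513 regions lay in the 10 subunits, beside 32.7% of all tested genes with at least 1 region. Among the other integrin subunits it held 1 region in the 3' UTR of ITGA9 (chr3:37818892-37819972) and 1 in that of ITGA1 (chr5:52956332-52956423).

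**Figure D5:**
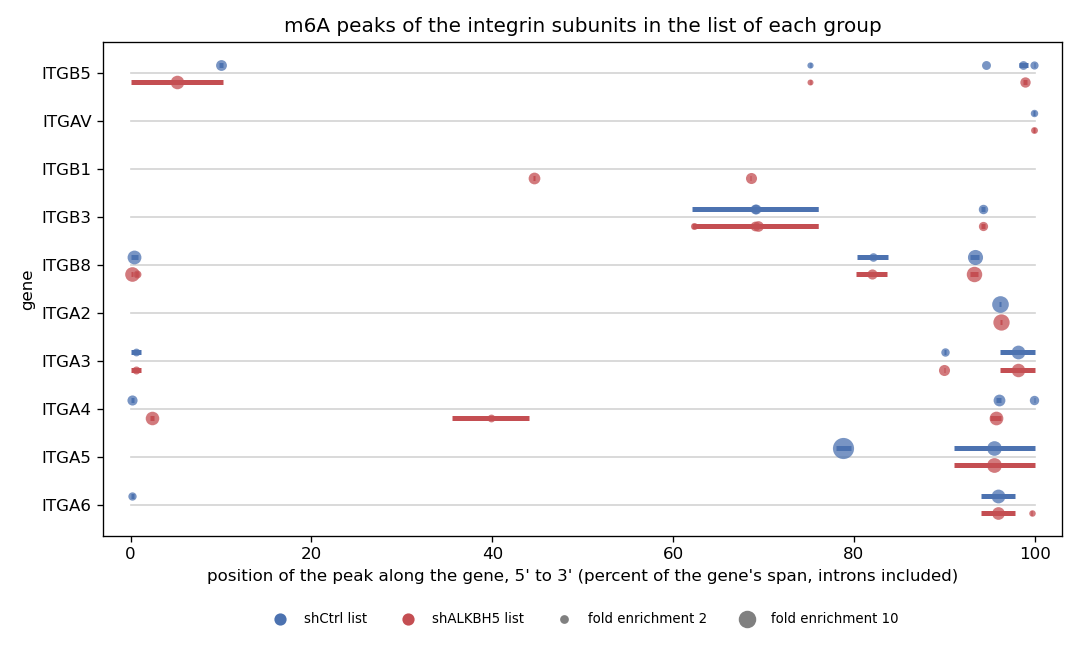
Position of each m6A peak along its gene, from the 5' end (0) to the 3' end (100) in percent of the gene's span with introns included, in the shCtrl list (blue, above the line) and the shALKBH5 list (red, below it), with the area of the point proportional to the fold enrichment and the bar showing the extent of the peak. The 3' end was marked in both lists in 9 of the 10 subunits, and ITGB1 had its 2 peaks in the shALKBH5 list only.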

How the data were processed

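Input RNA and m6A-immunoprecipitated RNA of A375 cells were sequenced by the submitters as paired-end libraries, and groups were taken from the sample labels. The authors deposited expression as FPKM per input library. The authors also deposited 1 peak list per group with the fold enrichment (ratio) of IP over input for each peak, and with a log10 p and log10 FDR that were treated as a score. Aligner, counter and peak caller are not given in the sources used here. Per the labels the build was mm10, yet the cells are human, and 93.7% of 11820 tested genes matched by symbol, among them all 10 subunits, lay within 100 bp of their RefSeq GRCh38.p14 start or end, so the deposited positions were read as that build. Peak starts were changed to count from 1, and peaks carry the authors' region annotation. The authors' own fold changes, p-values and FDR of the groups' comparison, in the expression table and in the table of differential peaks, were not used, and of the latter table only positions and regions were read.

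Low FPKM values showed no steps (the most common ratio between replicates 1 and 2 covered 0.340% of them in each group), so read counts could not be recovered, the depth is unknown and no count test or counting interval is given. log2(FPKM + 0.1) was fitted with limma 3.58.1 (R 4.3.3, eBayes with trend, two-sided) on the 6 input libraries, keeping the 12985 genes whose mean reached 0.5 FPKM, and p-values were adjusted by the Benjamini-Hochberg method over all of them. On simulated data with 200 changed genes of 12985, the fit recovered 96.5% of genes changed by 2 on the log2 scale, 87.3% at 1 and 55% at 0.5, with 5.52% false calls. These rates hold for that setting only, since a far larger share, 61.0% of the tested genes, was past the threshold in the data. Between any 2 libraries, at most 0.123% of the tested genes had equal values. The subunits and gene lists were chosen with earlier results of these data known. Named genes were the 10 subunits, ALKBH5, ITGB6, the other integrin subunits that passed the filter, up to 3 genes per list past the threshold with the largest difference, 12 further genes of the lists whatever their values, and the 5 genes nearest to ITGB5. A few genes that this rule names are not reported here. Alternatives were other pseudocounts, filters and scaling, a replicate block, each library left out, stricter peaks and another overlap. Sequences and starts are from RefSeq (GRCh38.p14).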

Additional observations from a re-analysis of the deposited data

How the results depend on the processing

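The direction of the difference held for each of the 10 integrin subunits under every alternative run. ITGB5 was at -3.39 with a pseudocount of 1 and at -3.65 after median ratio rescaling, and between -3.61 and -3.55 with 1 library left out. The median difference of the 10 subunits lay between -0.63 and -0.48 with 1 library left out. Over all genes, 6871 to 7832 were past the threshold with 1 library left out, and 8231 without the filter. The mean ITGB5 share of the alpha-v beta subunits, 9.81% and 43.1%, was 15.0% in shALKBH5 and 50.8% in shCtrl cells without ITGB1, as fewer genes make up the sum. With stricter peaks (fold enrichment of at least 2 and FDR of at most 0.01), the subunits kept 15 peaks of 24 in shALKBH5 and 19 of 23 in shCtrl cells, beside 66.6% and 68.4% of all peaks. ILK, at -0.05, ran from -0.11 to 0.06 with 1 library left out, with the positive value without shCtrl replicate 1 and not past the threshold there, and the cause was not tested. Same-numbered libraries of the groups did not deviate together (correlations of 0.018, -0.046 and 0.059), so the numbers do not pair them. With a replicate block 7271 genes were past the threshold in place of 7917, and the calls of ITGA1 (adjusted p = 0.0723) and DAB2 (adjusted p = 0.0620, limma) were lost, and no other named gene changed its call. The ITGA1 call was also lost without the filter (adjusted p = 0.116) and without the trend in limma (0.0614), where ITGAX passed (0.0223). The 3 libraries per group and the unknown depth limit the rare subunits most, and single peak lists allow no error for any peak value.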
